A study of Mus musculus with 9 samples.

Results

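Tanycytes (TNC) are the cells that the study annotated as TNC, and 359 of the 72543 deposited single-cell transcriptomes carried that label. They were compared with the ependymocytes (EPC, 905 cells) and astrocytes (AC, 16635 cells) of the same libraries, the types nearest to them in position and expression. The cells came from male C57BL/6J mice, for which the labels name no altered allele, in 3 groups of 3 libraries each: young adult mice aged 2 to 3 months, aged mice of 18 to 20 months, and aged mice given exenatide, an agonist of the glucagon-like peptide 1 receptor, at 5 nmol per kg a day by intraperitoneal injection from 17 to 18 months of age for 4 to 5 weeks. The untreated aged mice have no vehicle stated in their labels. The labels list 3 mice for each library, whereas the study's own text counts fewer mice in the young adult and aged groups than 3 libraries of 3 separate mice would need. Libraries of a group may therefore share mice, and the tests measure the spread between libraries only. Brains without the cerebellum were dissociated by a protocol made for vascular cells, with removal of myelin, and messenger RNA of single cells was counted as unique molecular identifiers (UMIs) on a droplet platform that reads the 3′ end of transcripts.

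Tanycytes line the floor and the lower walls of the third ventricle in the hypothalamus, and send a long basal process toward the capillaries of the median eminence or into the arcuate, ventromedial and dorsomedial nuclei. They carry hormones and nutrients between blood, cerebrospinal fluid and neurons, handle thyroid hormone, and keep features of neural progenitors. Alpha tanycytes sit along the wall of the ventricle, and beta tanycytes sit in the floor, where their tight junctions close off the median eminence. Ependymocytes line the rest of the ventricle and bear motile cilia, which tanycytes largely lack.

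The young adult libraries 1, 2 and 4 held 13, 55 and 91 TNC. The aged libraries 1, 2 and 4 held 0, 34 and 38 TNC, and the exenatide-treated libraries 1, 2 and 4 held 28, 43 and 57. Library 1 of the aged group was also the smallest of the series, with 938 cells, and its 0 TNC allow a share of up to 0.320%. It could not enter any comparison of expression, which left 2 aged libraries. Summed over the TNC of a library, UMI totals ran from 42708 in young adult library 1 to 196363 in young adult library 4.

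As a share of all cells, TNC made up 0.176, 0.602 and 0.606% of the young adult libraries 1, 2 and 4. In the aged libraries the shares were 0, 0.573 and 0.691%, and in the exenatide-treated libraries they were 0.293, 0.580 and 0.489%. The groups overlapped, and the library with number 1 was the lowest of its group in each of the 3 groups. The aged mean, 0.421% ± 0.370 (SD, n = 3), did not differ from the young adult mean, 0.461% ± 0.247 (SD, n = 3), beyond the spread between libraries (p = 0.8 by an exact permutation of libraries, two-sided, a test that cannot go below 0.1 with 3 libraries on each side). Likewise the exenatide-treated mean, 0.454% ± 0.147 (SD, n = 3), was within the spread of the aged libraries (p = 0.9 by the same exact permutation). Without aged library 1, the difference of aged from young adult was 0.171 percentage points and that of exenatide-treated from aged was -0.178, each with the opposite sign to the value over all libraries.

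**Figure D1:**
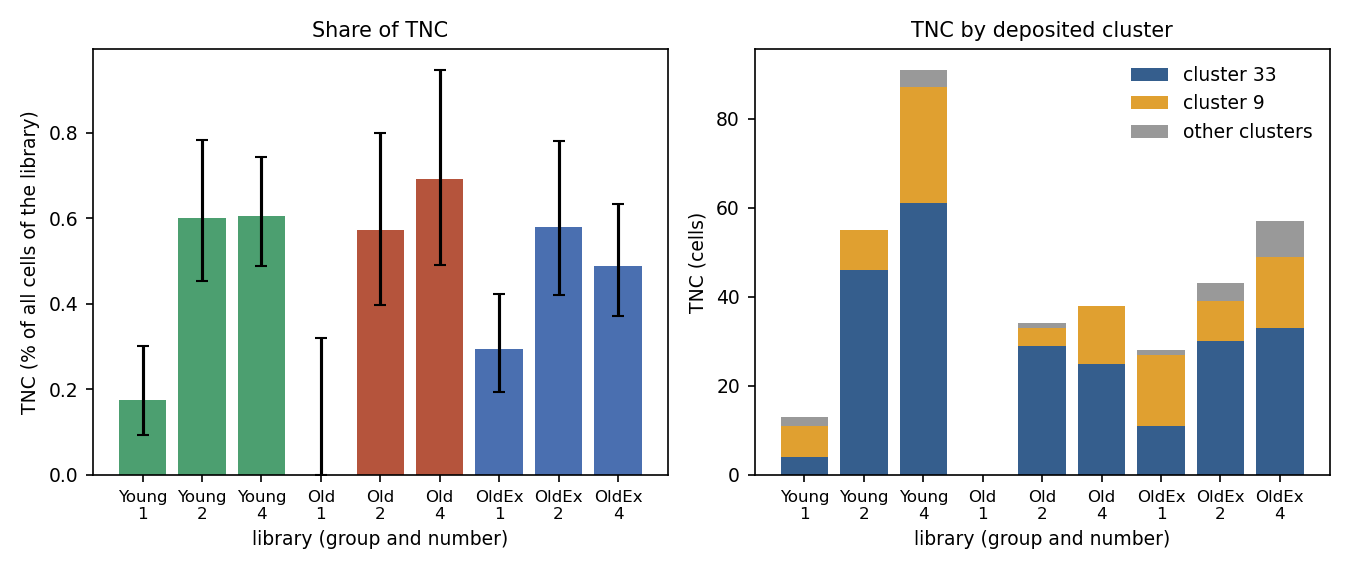
Left, the share of TNC among all cells of each of the 9 libraries in percent, with exact 95% binomial intervals that cover counting error only. For the library with 0 TNC the limit of 0.320% is that of 3 counts (the exact interval reaches 0.392%). Right, the number of TNC in each library, split by the deposited cluster; aged library 1 (Old 1) has no TNC, and the 3 libraries numbered 1 hold the fewest cluster 33 cells of their groups.

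The label was first checked against the markers. The deposited table also gives the cluster of every cell, and the TNC did not form a single cluster. Cluster 33 held 239 of them, cluster 9 held 100, and the other 20 lay in 6 clusters made almost wholly of other types. Cluster 33 was mostly TNC (239 of 326 cells, with 86 AC), whereas cluster 9 was mostly AC (2767 of 2874 cells, with 100 TNC).

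The TNC of cluster 33 carried the tanycyte genes. Rax, the homeodomain factor that marks tanycytes in the adult hypothalamus, was at 304 CPM (the UMIs of a gene after scaling the summed cells to 1000000 UMIs) in TNC of cluster 33, against 17.2 CPM in TNC of cluster 9. Col23a1, a transmembrane collagen, was at 599 CPM against 25.8, and Crym, the thyroid hormone-binding protein mu-crystallin, at 348 against 4.31. Gpr50, an orphan receptor of the melatonin receptor family, was at 393 CPM in TNC of cluster 33 and at 12.9 in TNC of cluster 9. Nkx2-1, a factor that specifies the ventral hypothalamus, was at 108 CPM against 0. The order was the same per cell: a Rax UMI was seen in 81 of 239 cluster 33 TNC and in 3 of 100 of cluster 9, a Col23a1 UMI in 128 and 6, and a Gpr50 UMI in 105 and 2. The TNC of cluster 9 had the higher median of UMIs per cell (2283, against 1642 in cluster 33).

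The 100 TNC of cluster 9 were instead led by genes of fibrous astroglia. Gfap, the intermediate filament of reactive and white matter astrocytes, was seen in 100 of 100 of them and stood at 5388 CPM, against 144 CPM in TNC of cluster 33. Myoc, which encodes the secreted glycoprotein myocilin, was seen in 82 of 100 cells, at 2627 CPM against 8.50. Aqp4, the water channel of astrocyte endfeet, stood at 2606 CPM against 89.2, and Fabp7, a fatty acid-binding protein of radial glia and astrocytes, at 2498 against 65.8. Frzb, Penk, Scn7a, Col25a1 and Map1b had 0 UMIs in these 100 cells. For the 100 cells the markers therefore went against the label, and they are called TNC of cluster 9 below, with no other name. Of the 86 AC in cluster 33, by contrast, 39 had a Crym UMI (779 CPM), with Col23a1 and Gpr50 at 0 UMIs. All of these differences are descriptions without a test, because the clusters were made from the same genes.

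**Figure D2:**
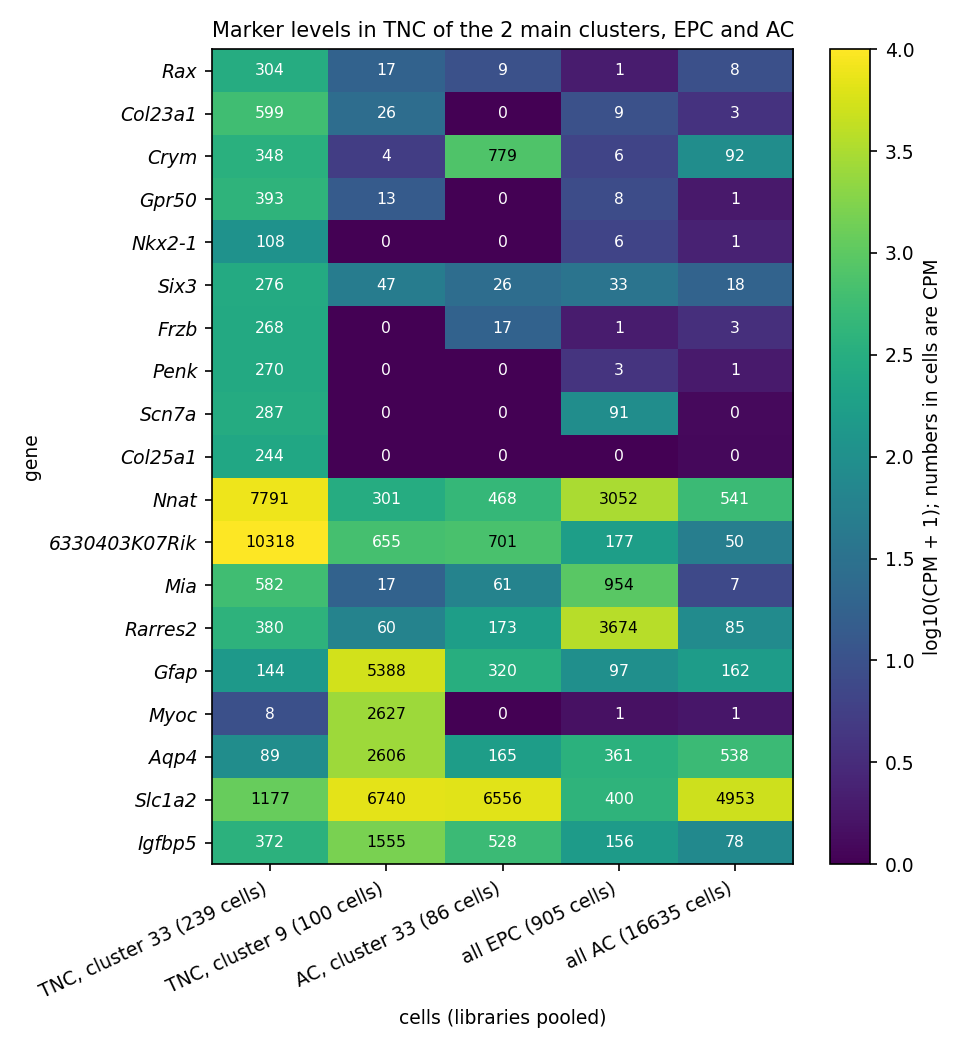
Level of 19 genes (rows) in TNC of cluster 33, TNC of cluster 9, AC of cluster 33, all EPC and all AC (columns), with libraries pooled; the colour is log10 of CPM plus 1 and the printed value is the CPM. Rax, Col23a1, Gpr50, Frzb, Penk and Col25a1 stand highest in the first column, Gfap, Myoc and Aqp4 in the second, Crym in the third and Mia and Rarres2 in EPC.

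The mixture differed between libraries. Cluster 9 supplied 53.8, 16.4 and 28.6% of the TNC of young adult libraries 1, 2 and 4. It supplied 11.8 and 34.2% in aged libraries 2 and 4, and 57.1, 20.9 and 28.1% in exenatide-treated libraries 1, 2 and 4. A level summed over all TNC therefore mixes a change within tanycytes with a change in how many of the counted cells were tanycytes, and these cannot be told apart in the sums. For that reason values within cluster 33 are given beside those of all TNC for the genes called for ageing, where testable there, and for the gene lists. For the differences from AC and EPC, values within cluster 33 are given only for genes called there. They rest on 7 libraries, since young adult library 1 had only 4 such cells.

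A few cells also set single libraries apart. In young adult library 1, Ttr, the thyroid hormone carrier transthyretin made in the choroid plexus, was at 46572 CPM, but 1957 of its 1989 UMIs came from 1 cell, in which they were 37.4% of all UMIs. Without that cell the level in the library was 854 CPM, and the other libraries lay between 801 and 5011 CPM. The highest of these, young adult library 4, had 640 of its 984 Ttr UMIs in 1 cell of cluster 33 and was at 1784 CPM without it. In aged library 2, 463 of 470 hemoglobin UMIs came from 1 TNC of cluster 35. Of the 359 TNC, 18 had a barcode sequence that also occurred in another library, as did 4435 (6.11%) of all cells.

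Across libraries, the defining genes set TNC apart from both neighbours. Rax stood at 46.8, 316 and 290 CPM in the TNC of young adult libraries 1, 2 and 4. Its levels were 445 and 135 CPM in aged libraries 2 and 4, and 0, 272 and 52.9 CPM in exenatide-treated libraries 1, 2 and 4. The mean was 195 ± 158 CPM (SD, n = 8), against 9.25 in AC and 1.08 in EPC, and Rax was higher in TNC than in AC in 7 of 8 libraries. The exception was exenatide-treated library 1, where 0 Rax UMIs in 28 TNC allow a level of up to 56.7 CPM. Col23a1 averaged 419 ± 292 CPM (SD, n = 8), against 3.20 in AC and 11.5 in EPC, and was higher in TNC in 8 of 8 libraries. Crym averaged 242 ± 144 CPM (SD, n = 8), against 110 in AC and 5.29 in EPC, and exceeded AC in 7 of 8 libraries. For the genes named here, Col23a1 lies at chr11:51289920-51583918, Crym at chr7:120186380-120202111 and Gpr50 at chrX:71663667-71669257 (GRCm38, whole gene).

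Other tanycyte genes had a like distribution. Gpr50 averaged 261 ± 134 CPM (SD, n = 8), against 0.655 in AC and 12.1 in EPC. The imprinted hydrolase gene Mest averaged 89.6 ± 57.0 CPM in TNC and was higher than in AC and in EPC in 8 of 8 libraries. Six3, a homeodomain factor of the anterior forebrain, averaged 186 ± 119 CPM and exceeded AC in 8 of 8. The homeodomain gene Lhx2 was shared with AC (182 CPM in TNC, 147 in AC). Low genes of the tanycyte list were thinly sampled at this depth: Six6 averaged 24.1 CPM, Trhde 18.8, Fndc3c1 17.8 and Slc17a8 4.74.

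Not every gene known from tanycytes was highest in TNC. Vim, the intermediate filament vimentin, averaged 433 CPM in TNC and 842 in EPC, and Rarres2, the precursor of the adipokine chemerin, 285 in TNC and 3836 in EPC. Both were lower in TNC than in EPC in 8 of 8 libraries. Dio2, the deiodinase that makes active thyroid hormone in tanycytes, averaged 52.7 CPM in TNC and 97.4 in AC, and exceeded AC in 1 of 8 libraries. Its level was 36.1 CPM in TNC of cluster 33 and 108 in TNC of cluster 9. The 12 listed ependymocyte genes, most of them of motile cilia, summed to 943 CPM in TNC and 11085 in EPC.

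Ranked by the ratio of the TNC mean to the highest mean of any of the 15 other annotated types, among genes of at least 50 CPM, the leading 20 genes showed both clusters. Myoc came first at 43.3-fold over the next type (982 ± 538 CPM, n = 8) and Gfap stood at 12.8-fold, and both belonged to TNC of cluster 9. Nkx2-4 (23.6-fold), a relative of Nkx2-1, Gpr50 (21.5-fold), Rax (21.1-fold), the uncharacterised transcript 6330403K07Rik (9.65-fold) and Col23a1 (6.60-fold) belonged to cluster 33. Others in the ranking were Cnmd, which encodes chondromodulin (8.62-fold), Kctd14 (5.83-fold), the secreted WNT antagonist Frzb (5.10-fold), the axon guidance cue Slit2 (2.62-fold) and the tight junction protein Cldn3 (2.58-fold). The transcript 6330403K07Rik, with a mean of 6792 ± 3167 CPM (SD, n = 8), was lowest in exenatide-treated library 1 and highest in aged library 2.

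Markers of alpha and beta tanycytes were both present. Of the beta list, Igfbp5, a binding protein for insulin-like growth factors, averaged 793 CPM in TNC, but it stood at 372 CPM in cluster 33 and 1555 in cluster 9. Cldn10, also of the beta list, averaged 255 CPM in TNC, 1102 in AC and 31.7 in EPC. It exceeded AC in 0 of 8 libraries and EPC in 8 of 8, with 280 CPM in cluster 33 and 276 in cluster 9. Scn7a, the sodium channel Nax of the circumventricular organs, stood at 287 CPM in TNC of cluster 33, and Col25a1, a transmembrane collagen, at 244 CPM, both with 0 UMIs in TNC of cluster 9. Col25a1 had 0 UMIs in the 905 EPC as well, whereas 143 of the EPC had an Scn7a UMI. Of the alpha list, Vcan, the matrix proteoglycan versican, was at 125 CPM in TNC of cluster 33, and Pdzph1 at 134 CPM. Of the other alpha genes, Cd59a, Lyz2, Cyp2f2 and Slc17a8 lay between 12.7 and 57.3 CPM in cluster 33.

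Detection of the beta genes was sparse at this depth. Of the 239 TNC of cluster 33, 51 had a UMI of Col25a1 or Scn7a, 90 had a UMI of Frzb or Penk, and 27 had both, while 125 had none of the 4. The pairs were chosen after these counts had been seen, and a cell without a UMI of a gene may still express it, so the counts do not show that the pairs mark separate cells. In the 24 cells with the first pair alone, Igfbp5 stood at 849 CPM, Six3 at 691 CPM and Nkx2-1 at 257 CPM, with Crym at 39.5 CPM. The 63 cells with the second pair alone had Crym at 703 CPM and Gpr50 at 651 CPM, with Igfbp5 at 163 CPM, Six3 at 266 CPM and Nkx2-1 at 51.8 CPM. Rax was at 454 and 355 CPM in these sets. The sets had similar depth, with median UMIs per cell of 2137 and 1952. The sets also differed in age: 18 cells of the first were from young adult, 1 from aged and 5 from exenatide-treated libraries, against 17, 21 and 25 of the second. These pooled values of few cells therefore mix gene pair, group and library, which cannot be told apart in them, and are given without a test.

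**Figure D3:**
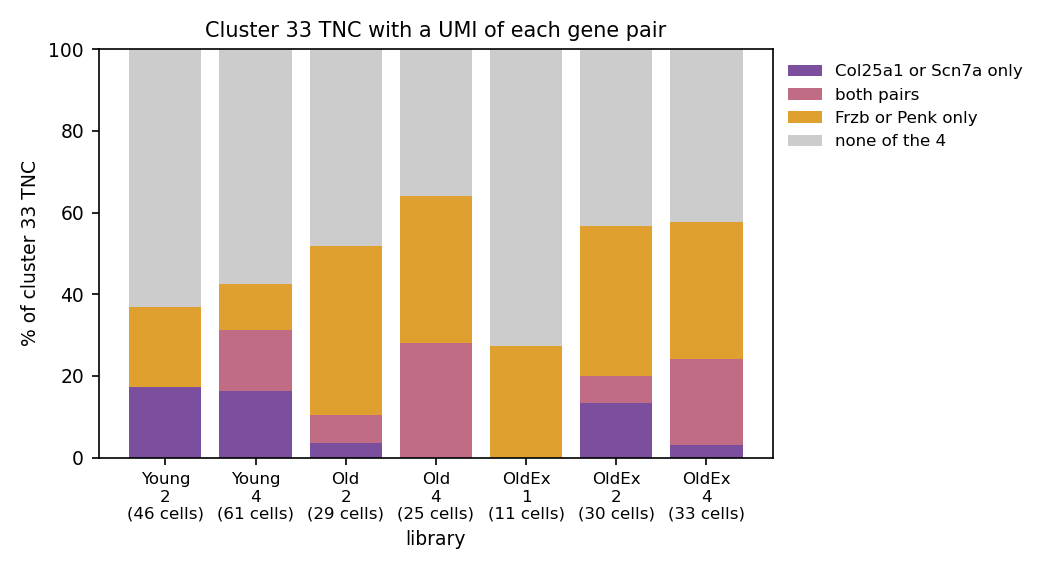
Share of the TNC of cluster 33 in each of 7 libraries that had a UMI of Col25a1 or Scn7a alone, of both gene pairs, of Frzb or Penk alone, or of none of the 4 genes; cell numbers stand under the bars. Cells of the Frzb or Penk pair were 9 of 46 and 16 of 61 in young adult libraries 2 and 4 and 14 of 29 and 16 of 25 in the aged ones, counts that include Penk itself.

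Ageing was tested over the 3 young adult and 2 aged libraries with TNC, in a fit that also held the 3 exenatide-treated libraries. Penk and Slc7a11 were higher, and Ccnd2, Ccl4 and Cldn5 were lower, in aged TNC when the library number entered the fit as a block. Without the block none of 1621 genes was called (0%, where a call is an adjusted p under 0.05 with a natural log fold change, lnFC, beyond 0.1), and 43 had an unadjusted p under 0.05. With the block 5 genes were called (0.308%) and 107 had an unadjusted p under 0.05. Libraries with the same number deviated together from their group means in 7 of 7 pairs. The 2 aged libraries deviate from their mean by equal and opposite amounts, so these pairs are not independent of each other. The blocked count was 0 without young adult library 2 or 4, and 10, 8, 15 and 12 without young adult library 1 or exenatide-treated library 1, 2 or 4. DESeq2 without the block called 1 gene, Penk. The aged libraries are shared by the comparisons with young adult and with exenatide-treated mice.

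Penk encodes proenkephalin, the precursor of the enkephalin opioid peptides, and lies at chr4:4133531-4138819 on the minus strand (GRCm38). It stood at 70.2, 0 and 45.8 CPM in the young adult libraries 1, 2 and 4, which are 3, 0 and 9 UMIs. In aged libraries 2 and 4 it stood at 387 and 570 CPM, and in exenatide-treated libraries 1, 2 and 4 at 18.9, 201 and 189 CPM. The young adult and aged libraries did not overlap, and the exenatide-treated libraries lay between them apart from library 1, which was within the young adult range. The lnFC of aged over young adult was 2.57 (SE 0.509, edgeR adjusted p = 0.348) without and 2.51 (SE 0.391, edgeR adjusted p = 0.0042) with the block. The adjusted p of DESeq2 was 0.0080. In TNC with no UMI of another type's markers the lnFC of Penk was 3.17 without the block, and it was not called (edgeR adjusted p = 0.982). Leaving out young adult library 2 or 4 raised the blocked adjusted p to 0.0888 and 0.164, with lnFC of 2.15 and 2.54, and Penk was called in the other 6 such fits, of which those without aged library 2 or 4 keep a single aged library and take its spread from the other groups.

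The rise of Penk was seen within cluster 33, to which every Penk UMI of the TNC belonged (127 UMIs in 43 cells). Cluster 33 TNC with a Penk UMI were 0 of 46 and 5 of 61 in young adult libraries 2 and 4, 9 of 29 and 14 of 25 in aged libraries 2 and 4, and 1 of 11, 6 of 30 and 7 of 33 in exenatide-treated libraries 1, 2 and 4. With each cell thinned to 1000 UMIs and shallower cells left out, Penk was seen in 0 and 4.33% of young adult cells of libraries 2 and 4 and in 27.1 and 39.4% of aged ones, so the aged shares stayed the higher. Outside TNC, a Penk UMI was seen in 20 of 16635 AC and 2 of 905 EPC, at medians of 1145 and 1943 UMIs per cell. Within cluster 33 the lnFC of Penk was 2.71 with the block (edgeR adjusted p = 4.1e-06) and 2.69 without it (edgeR adjusted p = 0.154). Penk was called in each of the 7 fits with the block that left out 1 library of cluster 33 (lnFC 2.35 to 5.46). In 4 of these fits the young adult or the aged group was a single library, assumed to vary like the others, and 6 of them had 1 residual degree of freedom, so these calls add little about stability.

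Slc7a11 encodes xCT, which imports cystine in exchange for glutamate and so feeds glutathione synthesis. It stood at 187, 147 and 153 CPM in the TNC of the young adult libraries, at 464 and 519 CPM in the aged ones, and at 284, 258 and 461 CPM in the exenatide-treated ones. All 3 young adult libraries were below both aged libraries, and the exenatide-treated libraries lay between the young adult maximum and the aged minimum. The lnFC of aged over young adult was 1.13 (SE 0.262, edgeR adjusted p = 0.348) without and 1.14 (SE 0.232, edgeR adjusted p = 0.0258) with the block, and 1.60 in cluster 33 with the block (edgeR adjusted p = 0.0011). The blocked call over all TNC was lost without young adult library 2 (edgeR adjusted p = 0.186), young adult library 4 (0.986), aged library 2 (0.160) or aged library 4 (0.101). In cluster 33 the blocked call was lost without exenatide-treated library 2 (edgeR adjusted p = 0.0996) or 4 (0.0843). Nor was it called there without young adult library 4, where that group was a single library (lnFC 1.15). Of the 7 fits of cluster 33 that left out 1 library, 4 called Slc7a11. In TNC with no UMI of another type's markers the lnFC was 0.66 (edgeR adjusted p = 0.994). Slc7a11 was not particular to TNC, since AC averaged 382 ± 94.7 CPM.

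The sequence just before the Slc7a11 start is shown because it holds the motif TGATGCAAA, a form of the amino acid response element that ATF4 binds, on both strands. The sequence runs from 250 bases before to 50 after the RefSeq start at chr3:50443564-50443863, minus strand (GRCm38.p6), and capitals mark the 2 matches, the second of them on the opposite strand.
Slc7a11: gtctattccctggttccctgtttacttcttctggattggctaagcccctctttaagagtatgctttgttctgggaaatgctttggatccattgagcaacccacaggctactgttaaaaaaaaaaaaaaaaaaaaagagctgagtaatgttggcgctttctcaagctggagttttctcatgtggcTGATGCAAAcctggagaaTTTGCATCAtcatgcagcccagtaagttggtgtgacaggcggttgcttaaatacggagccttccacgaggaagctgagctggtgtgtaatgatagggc
The motif occurs on either strand in 74 of 27025 such promoter windows (0.274%). The core of the antioxidant response element, TGACNNNGC, is in 12.5% of the windows on either strand and not in this one. The window of Cldn5, which was also searched, held neither motif. A match describes these letters only.

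Ccnd2, cyclin D2, which drives entry into the cell cycle, fell. It stood at 234, 497 and 244 CPM in the young adult libraries, at 77.3 and 62.2 CPM in the aged ones, and at 151, 186 and 121 CPM in the exenatide-treated ones. The 3 groups did not overlap, and the exenatide-treated libraries lay between the other groups. The lnFC of aged over young adult was -1.56 (SE 0.371, edgeR adjusted p = 0.348) without and -1.54 (SE 0.306, edgeR adjusted p = 0.0258) with the block. In cluster 33 with the block it was -2.28 (edgeR adjusted p = 0.0018). That call was lost without exenatide-treated library 2 (edgeR adjusted p = 0.105) or 4 (0.0843). It was also absent without young adult library 2 (lnFC -1.92) or aged library 4 (-1.85), where that group was a single library. Of the 7 fits of cluster 33 that left out 1 library, 3 called Ccnd2. The blocked call over all TNC was lost without young adult library 2 (edgeR adjusted p = 0.317), young adult library 4 (0.0806), aged library 2 (0.337) or aged library 4 (0.101).

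Ccl4 and Cldn5 were the other genes called lower. Ccl4, a chemokine of activated microglia, stood at 46.8, 214 and 224 CPM in the young adult libraries and at 19.3 and 0 CPM in the aged ones. Cldn5, the claudin of brain endothelial tight junctions, stood at 70.2, 530.5 and 224 CPM and at 58.0 and 41.5 CPM. The blocked lnFC was -3.29 for Ccl4 (SE 0.559, edgeR adjusted p = 0.0069) and -1.94 for Cldn5 (SE 0.392, edgeR adjusted p = 0.0258). Neither was called without the block (edgeR adjusted p = 0.509 and 0.998). The blocked lnFC of Ccl4 was -5.11 without aged library 2 and -2.39 without aged library 4. Of the 89 Ccl4 UMIs of the TNC, 52 were in cluster 9, the cells whose markers went against the label, and 39 of these were in young adult library 4. In TNC of cluster 9 the lnFC of Ccl4 was -5.30, from 1 young adult and 1 aged library. The spread of that fit came from the exenatide-treated libraries alone, so it cannot test a fall of Ccl4. In cluster 33 its UMIs numbered 17 and 3 (young adult libraries 2 and 4) against 1 and 0 (aged), too few for the test, and it was called in 0 of the 4 fits there that left out a library and could test it. Without aged library 4 the blocked call was lost for Ccl4 (edgeR adjusted p = 0.350) and for Cldn5 (0.101), and without aged library 2 for Cldn5 (0.118). Neither could be tested without young adult library 2 or 4, where too few UMIs were left.

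Markers of microglia and endothelium were summed in the same libraries. The 6 microglial markers summed to 258, 1907 and 891 CPM in the young adult TNC, 290 and 311 CPM in the aged and 246, 287 and 612 CPM in the exenatide-treated. The 6 endothelial markers summed to 211, 1072 and 774 CPM, to 329 and 156 CPM, and to 75.7, 258 and 491 CPM in the same order, with Cldn5 the one with most UMIs. Young adult libraries 2 and 4 were the highest in both lists, as they were for Ccl4 and Cldn5, whereas young adult library 1 was below both aged libraries for the microglial and below aged library 2 for the endothelial sum. Of these lists 2 and 4 genes were tested, and Cldn5 was the only one called, with the block. No marker of either list was at 0 over all TNC. Their part in the results for Ccl4 and Cldn5 was not tested. Of the remaining types, the 6 oligodendrocyte markers summed to 133 CPM over all TNC (Mbp with most UMIs, Mog at 0), the 4 markers of their precursors to 46.5 CPM (Olig1), and the 6 of pars tuberalis or pituitary to 23.3 CPM (Pomc, with Cga and Tshb at 0). The 7 neuronal markers summed to 876 CPM, of which Meg3 made up 837 CPM, with Syt1 at 0.

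**Figure D4:**
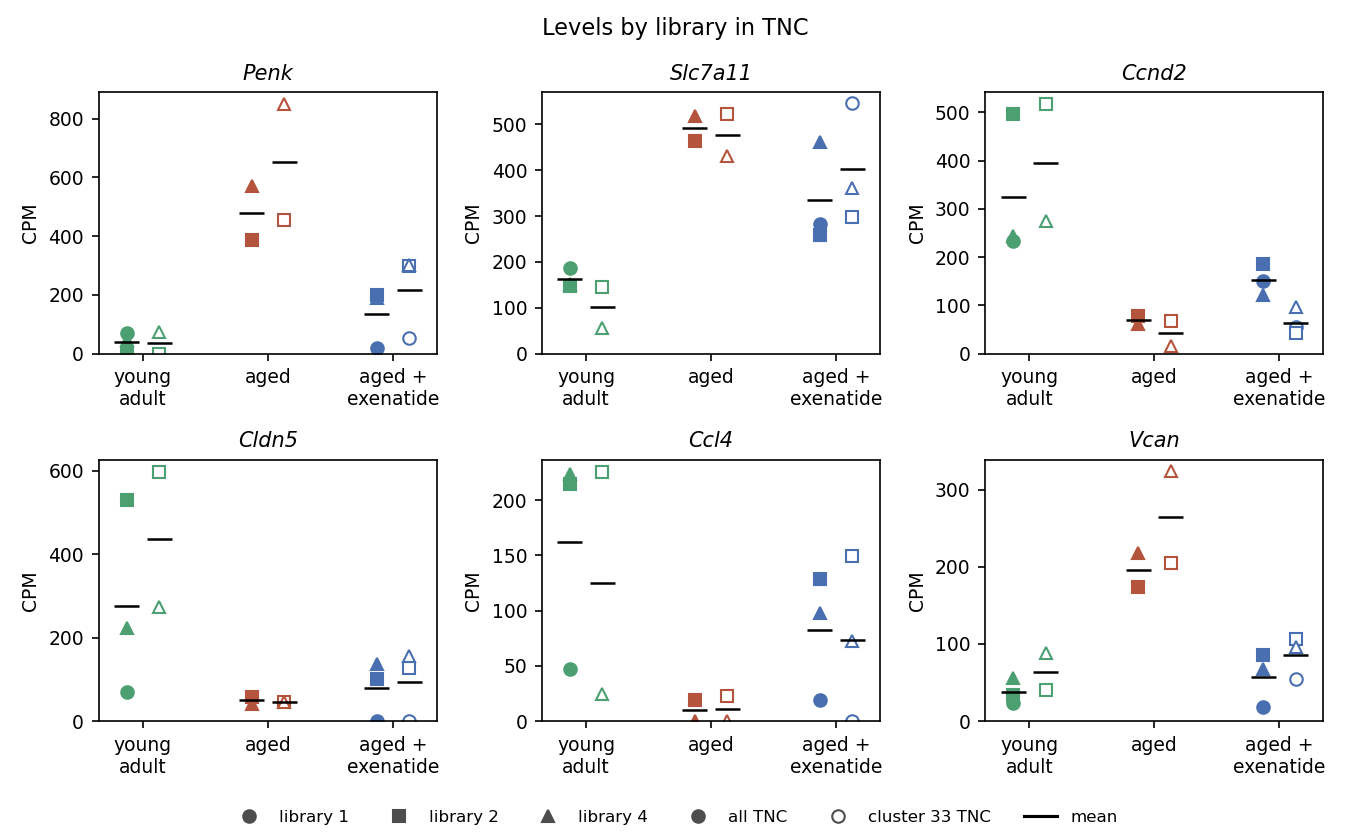
Level (CPM, linear axes from 0) of the 5 genes called between young adult and aged TNC with the library number as a block, and of Vcan, by group; filled symbols are all TNC of a library, open symbols its TNC of cluster 33, shapes give the library number and bars the group mean. Penk, Slc7a11 and Ccnd2 separate the 3 young adult from the 2 aged libraries over all TNC, and the 2 young adult from the 2 aged libraries in cluster 33.

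Within cluster 33 alone, 0 of 1323 genes were called without the block (0%, with 46 at an unadjusted p under 0.05) and 9 with it (0.68%). Beside Penk and Slc7a11, Apoe, the main lipid carrier of the brain, rose (lnFC 0.75), as did Gm42418 (1.25), a transcript that overlaps ribosomal RNA and stood at 1110 and 1278 CPM in aged and exenatide-treated libraries 4 against 164 to 341 CPM in the other 5. The lnFC of Gm42418 was 0.27 without young adult library 4 (edgeR adjusted p = 0.931) and 0.72 without aged library 4, and it was called in 3 of 7 fits that left out a library. Beside Ccnd2 (-2.28) and Cldn5 (-2.15), Dusp1, a phosphatase of the immediate early response, fell (-1.53). Higd1a, a mitochondrial hypoxia-inducible gene (-1.23), and Enho, which encodes the peptide adropin (-1.22), were also lower. On leaving out 1 library, the lnFC ran from -1.76 to -1.29 for Dusp1, from -1.49 to -0.86 for Higd1a and from -1.71 to -0.78 for Enho. That of Apoe ran from 0.68 to 0.86. Of the 7 fits that left out a library, 2 called Dusp1, 2 called Higd1a and 2 called Enho. Apoe was called in 3 of the 7, and Cldn5 in 3. The 9 calls with no library left out rest on 2 young adult and 2 aged libraries. Without exenatide-treated library 2 or 4, 1 gene was called, which was Penk, while 4 were called without aged library 4 and 23 without young adult library 4.

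Of the remaining genes with the lowest p, none passed the adjusted threshold, and they are given as values, not as changes. Vcan, the alpha tanycyte proteoglycan, stood at 23.4, 33.9 and 56.0 CPM in the young adult libraries and at 174 and 218 CPM in the aged (lnFC 1.52, edgeR adjusted p = 0.998). Psmb8, a subunit of the immunoproteasome, stood at 0, 56.4 and 50.9 CPM and at 251 and 156 CPM (1.51), and Bst2, an interferon-induced antiviral protein, at 46.8, 158 and 56.0 CPM and at 309 and 239 CPM (1.12). None of these pairs of groups overlapped. In cluster 33 with the block the lnFC was 1.36 for Vcan, 1.31 for Psmb8 and 0.99 for Bst2, and none was called. The complement gene C1qc (-1.52), a marker of microglia, Nfkbia, the inhibitor of NF-kappaB (-1.80), and the serine protease gene Htra1 (-1.04) had negative lnFC. Slc38a1 (0.79), S100a6 (0.61) and Mef2c (0.78) had positive ones.

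Gene lists were read beside the median over all genes, a lnFC of -0.01 for ageing without the block, 0.0021 with it and -0.02 in cluster 33 with it. The medians of the lists follow in that order, with the number of genes tested over all TNC; in cluster 33 other numbers of genes passed the filter. Of the 18 tanycyte genes, all seen in TNC, 10 were tested and 0 called with or without the block, with medians of 0.17, 0.16 and 0.29, and 9 of 10 lay above 0 without and 7 of 10 with the block. Of the 10 beta genes, 6 were tested, with medians of -0.19, -0.14 and -0.22, and only Penk was called, with the block. In the thyroid hormone list 4 of 12 genes were tested (0.41, 0.30 and 0.21), among them Crym (0.66 without the block), and 0 were called. The list of homeodomain and regional factors had 7 tested and 0 called. Its median was 0.07 without the block, -0.23 with it and -0.11 in cluster 33, so its sign turned with the block. Rax (0.14) and Six3 (0.03) were among its values without the block. Of the retinoid and chemerin list 4 were tested and 0 called (-0.05, -0.03 and 0.08), of the glucose and monocarboxylate list 5 and 0 (-0.30, -0.15 and -0.19).

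The progenitor and Notch list had 8 of 16 genes tested and 0 called (medians of -0.03, -0.02 and 0.05), among them the Notch target Hes1 (0.63) and the inhibitor of differentiation Id3 (-0.42). Of 16 genes of class I antigen presentation and interferon response, 7 were tested and 0 called, with 6 of 7 above 0 in each of the 3 fits and medians of 0.34, 0.28 and 0.14. The lipid list had 10 tested, 0 called and 1 above 0 (-0.35, -0.15 and -0.09), the 1 being Apoe at 0.45, which was called in cluster 33 with the block. All 3 metallothioneins, which bind zinc and copper, were tested and 0 called (-0.30, -0.12 and -0.08). The secreted factors had 8 tested, with Penk called under the block (0.10, 0.13 and 0.25). Of the tight junction list 2 were tested and Cldn5 called under the block (-0.894, -0.998 and -1.06). The immediate early and heat shock list had 11 tested and 0 called, and its median of -0.01 without the block was -0.30 with it and -0.16 in cluster 33. The glucocorticoid response list had 2 tested and 0 called (-0.86 and -0.77), and its 1 gene tested in cluster 33 stood at 0.18. The receptor list had 2 of 14 tested, Fgfr1 (-0.92) and Fgfr3 (-0.86), and 0 called, with none tested in cluster 33. Glp1r, the receptor that exenatide binds, was not analysed here, and the leptin receptor Lepr had 0 UMIs in the 359 TNC.

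Exenatide was tested over the 3 exenatide-treated and 2 aged libraries, in the same fit. No gene was called without the block (0% of 1621, with 48 at an unadjusted p under 0.05) or with it (0%, with 80), by DESeq2 (27), or within cluster 33 without (0% of 1323, with 37) and with the block (0%, with 68). Without aged library 4, which left 1 aged library, 4 genes were called without the block and 5 with it. With the block, 1 to 3 genes were called without young adult library 1 or any 1 of the exenatide-treated libraries, and 5 to 6 in cluster 33 without young adult library 2 or 4, aged library 2 or exenatide-treated library 1. The genes with the lowest p are given as values, not as changes.

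Among tanycyte genes, Penk had a lnFC of -1.17 of exenatide-treated over aged (SE 0.433, edgeR adjusted p = 0.998), and -0.94 in cluster 33. Vcan stood at 18.9, 86.0 and 68.0 CPM in the exenatide-treated libraries, all below both aged libraries (lnFC -1.15, edgeR adjusted p = 0.998). Kctd14 stood at 174 and 311 CPM in the aged and at 56.7, 115 and 60.4 CPM in the exenatide-treated libraries (lnFC -1.17, edgeR adjusted p = 0.998). Thrsp, a lipogenic gene that responds to thyroid hormone, stood at 1372 and 612 CPM and at 416, 531 and 310 CPM (lnFC -0.86). The imprinted genes Nnat (-0.62) and Peg3 (-0.89) and the transcript 6330403K07Rik (-0.74) also had negative values. In cluster 33 with the block the lnFC was -0.96 for Vcan, -1.16 for Kctd14, -0.70 for Thrsp, -0.34 for Nnat, -0.81 for Peg3 and -0.34 for 6330403K07Rik. Positive values went to Ncan, a proteoglycan of astrocytes (1.63), Fgfr1 (1.11), S100b, a calcium-binding protein of astroglia (0.88), and Ccl4 (2.38).

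Read as lists, beside a median lnFC of 0.01 over all 1621 genes, the tanycyte list had a median of -0.37 with 3 of 10 above 0 and 0 called. Its median was -0.20 with the block and -0.24 in cluster 33 with the block, where 5 of 11 lay above 0. Rax (-0.93), Crym (-0.77), Gpr50 (-0.65) and Col23a1 (-0.65) were among its lower values. The astrocyte list had a median of 0.47 (0.37 with the block) with 12 of 12 above 0 and 0 called, among them Slc1a2 (0.92), the main glutamate transporter of astrocytes, and Aldoc (0.51). The lipid list had a median of 0.56 (0.41 with the block) with 9 of 10 above 0 and 0 called. In cluster 33 with the block the medians were 0.45 for 8 astrocyte genes, 7 of them above 0, and 0.57 for 5 lipid genes, 4 of them above 0. The immediate early and heat shock list, whose genes respond to tissue dissociation among other stimuli, had a median of -0.31 with 1 of 11 above 0, -0.22 with 2 of 11 above 0 with the block and -0.25 with 1 of 11 in cluster 33 with the block, and 0 called. Its sum over TNC was 7674 and 1898 CPM in aged libraries 2 and 4, 2875, 4288 and 2122 CPM in exenatide-treated libraries 1, 2 and 4, and 1967, 9323 and 2531 CPM in the young adult libraries, so library 2 was the highest of each group. No gene of any other list was called. Astrocyte markers summed to 6301 and 10598 CPM in the TNC of the aged libraries and to 16794, 10554 and 14667 CPM in the exenatide-treated ones. In cluster 33 alone the sums were 3799 and 4732 CPM in the aged and 5569, 5301 and 8861 CPM in the exenatide-treated libraries, which did not overlap. The share of TNC in cluster 9 was 11.8 and 34.2% in aged libraries 2 and 4 and 57.1, 20.9 and 28.1% in exenatide-treated libraries 1, 2 and 4. Library 1 of the treated group thus had both the highest share and the highest sum, and between same-numbered libraries the share was higher with treatment for number 2 and lower for number 4. The part of cluster 9 in the sums over all TNC was not tested.

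**Figure D5:**
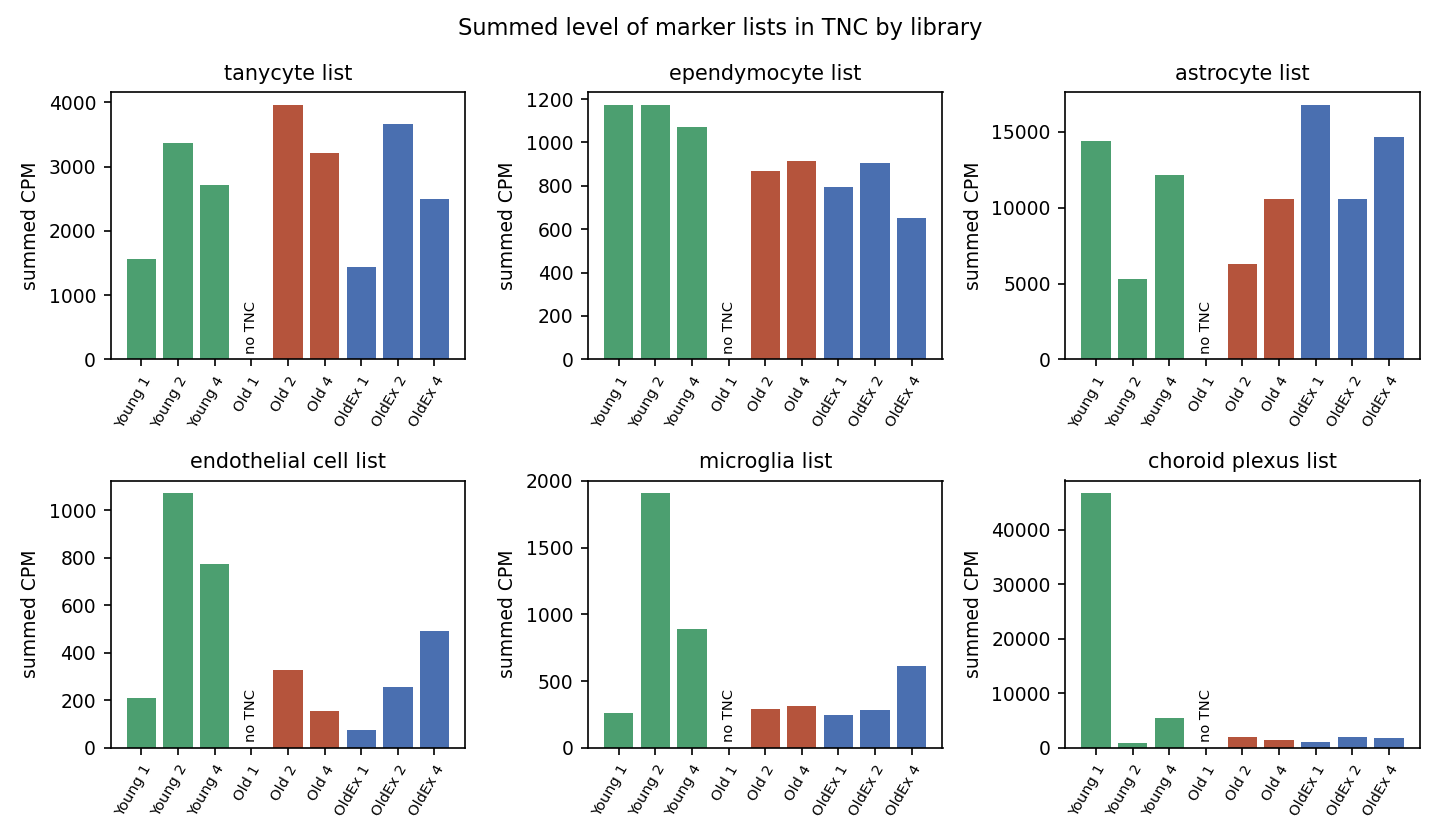
Summed CPM of 6 marker lists in the TNC of each library (axes start at 0 and differ between panels; green young adult, red aged, blue exenatide-treated; Old 1 has no TNC). The tanycyte list is lowest in young adult library 1 and exenatide-treated library 1, the microglia and endothelial lists are highest in young adult libraries 2 and 4, and the choroid plexus list is dominated by Ttr of 1 cell in young adult library 1.

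Whether an effect was larger in TNC than in the neighbouring types was tested as a difference of effects, with each library giving a sum of TNC and a sum of the other type. Against AC, 5 of 10086 genes had an ageing effect that differed (0.0496%), among them Ccnd2 with -1.61 (SE 0.350, edgeR adjusted p = 0.0148). In AC Ccnd2 stood at 99.9, 198 and 123 CPM in the young adult libraries and at 167 and 133 CPM in aged libraries 2 and 4, which overlap. Ccl4 also differed (-2.94), and the other 3 were hemoglobin genes, whose UMIs came nearly all from the TNC of cluster 35 named above. Without aged library 2 no gene was called, 2 were called without young adult library 4, and 3 without exenatide-treated library 2 or 4. With cluster 33 TNC in place of all TNC 1 of 9641 was called (0.0104%), which was Ccnd2 (-2.35).

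Against EPC, 1 of 2729 genes had an ageing effect that differed (0.0366%). It was Cst3, the protease inhibitor cystatin C, with a difference of 1.05 (SE 0.157, edgeR adjusted p = 3.2e-04). Cst3 stood at 14564, 24932 and 17498 CPM in the TNC of young adult libraries and at 32493 and 19817 CPM in those of aged libraries, and these overlapped. In EPC it stood at 6305, 5136 and 4998 CPM and at 2869 and 2326 CPM, and the aged libraries were below all young adult ones. The 6 microglial markers in the same EPC sums were at 1101, 1308 and 1348 CPM in the young adult and at 470 and 452 CPM in the aged libraries, and Cst3 is also abundant in microglia. Their part in the difference was not tested. The count was 2, 4 and 6 without aged library 2, aged library 4 or exenatide-treated library 1. With cluster 33 TNC, 3 of 2213 genes were called (0.136%): Cst3 (0.95), Slc7a11 (2.66) and Ptgds, a prostaglandin synthase abundant at brain borders (2.23).

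For exenatide, 5 of 10086 genes had an effect in TNC that differed from that in AC (0.0496%). Slc1a2 differed by 0.96 (SE 0.204, edgeR adjusted p = 0.0071) and Meg3, an imprinted noncoding transcript of neurons, by -1.18 (SE 0.254, edgeR adjusted p = 0.0071), and the others were the 3 hemoglobin genes. No gene was called without aged library 2, 11 were called without aged library 4, and 3 without exenatide-treated library 1 or 4. Of cluster 33 TNC, 0 of 9641 were called (0%, with 287 at an unadjusted p under 0.05). Against EPC 0 of 2729 genes were called (0%, with 121 at an unadjusted p under 0.05), 2 were called without aged library 2, and with cluster 33 TNC 2 of 2213 (0.0904%): Clu, the chaperone clusterin (0.97), and Dbi, the acyl-CoA-binding protein that gives rise to the endozepine peptides (0.75).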

How the data were processed

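Per the labels, reads of 9 libraries were aligned to mm10 and counted with Cell Ranger 3.0.0 and analysed in Seurat 3.0.1, and per the methods the authors removed genes found in few cells and cells of extreme UMI or gene number or high mitochondrial share. The deposited matrix holds natural log values made by the authors, ln of 1 plus 10000 times the UMI count over the total of the cell. UMI counts were recovered from these log values and the deposited total counts per cell: 58404382 of 58404382 entries were whole within 1e-06, and recovered sums equalled the total in 72543 of 72543 cells, over 19746 genes. The planned tests for counts were therefore run on the recovered counts. Cell types and clusters are those that the authors deposited; no further doublet removal was applied.

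UMI counts were summed over the TNC of each library with at least 10 TNC (8 libraries). Library was the replicate. Genes passing filterByExpr were tested in edgeR 4.0.16 (robust quasi-likelihood test, TMM scaling, factors 0.929 to 1.066) in R 4.3.3, with Benjamini-Hochberg adjustment over all genes tested. CPM in the text are unscaled. All 3 groups have libraries numbered 1, 2 and 4, and each number has its own deposited batch letter. Over 1621 genes, the deviations from group means correlated at 0.312 to 0.475 in all 7 same-numbered pairs (median -0.197 in the 14 other pairs). With only 2 aged libraries, their deviations are equal and opposite, so the pairs are not independent of each other. The number was used as the block on the basis of these values. Blocked values are given for the genes named as called for ageing in TNC and for the medians of gene lists. The differences from AC and EPC were not run with the block, so their calls carry no blocked value. DESeq2 1.42.0, other filters, scaling and subsets of cells were alternatives. Scripts were tested on simulated data. Intervals and limits from 3 counts cover counting error only. Gene positions are from GENCODE on GRCm38, promoters from RefSeq (GRCm38.p6). Members, lists and tests were chosen with earlier results of these data known. Genes named were all tanycyte-list members, the 20 leading genes by ratio, up to 10 per direction by call and then by p for each comparison, and up to 4 members of each list. A few genes of these lists are not reported here.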

Additional observations from a re-analysis of the deposited data

Results flagged for a closer look

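The effects below differed between TNC and a neighbouring type in the test of the difference itself. Relative to AC, the ageing effect in TNC differed by lnFC -1.61 for Ccnd2, -2.94 for Ccl4, 3.30 for Hba-a1, 3.03 for Hba-a2 and 2.85 for Hbb-bt. The exenatide effect in TNC differed from that in AC by 0.955 for Slc1a2, -1.18 for Meg3, -3.90 for Hba-a1, -3.68 for Hba-a2 and -3.96 for Hbb-bt. Relative to EPC, the ageing effect differed by 1.05 for Cst3. Hba-a1 and Hba-a2 are nearly identical genes whose reads may be split between them.

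The hemoglobin results rest on aged library 2, where 463 of 470 hemoglobin UMIs of the TNC came from 1 cell of cluster 35, which leaves 7 UMIs. Without that library, none of the 5 ageing and 5 exenatide differences from AC was called.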

How the results depend on the processing

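Counts of called genes moved with the setting. For ageing in TNC (0 without the block), 5 genes were called with the replicate block, 1 by DESeq2, 3 without a filter on low counts, 9 in cluster 33 with the block and 2 in cluster 9, and 0 to 4 when a library was left out (with the block 0, 4, 6, 8, 10, 12 or 15, and in cluster 33 with the block 1, 4, 9, 11, 13 or 23). For exenatide (0), 1 was called without a filter, and 0 to 4 when a library was left out (0 to 5 with the block, 0 to 6 in cluster 33 with the block). Of the ageing differences from AC (5), 2 were called without a filter, 1 in cluster 33 and 0 to 5 on leaving out a library, and of the exenatide differences from AC (5), 0 in cluster 33 and 0 to 11. Ageing differences from EPC (1) became 6 without a filter, 3 in cluster 33 and 1 to 6 on leaving out a library, and exenatide differences from EPC (0) became 2 in cluster 33 and 0 to 2. Causes were not tested. The fit of cluster 9 compared 1 young adult with 1 aged library, so its 2 calls cannot test an effect of ageing. Counts from fits that left 1 aged library, or 1 young adult library in cluster 33, rest on a single library in that group. Beyond the calls given in the report, pairing by library number changed no call of ageing or of exenatide in TNC. The differences from AC and EPC and the fit of cluster 9 were not run with the block. The difference of shares between aged and young adult (-0.0396 percentage points) was 0.0306 without young adult library 2, 0.0328 without young adult library 4 and 0.171 without aged library 1, and as low as -0.182 on leaving out a library. That of exenatide-treated from aged (0.0326) was 11.5 as a share of TNC and EPC, -0.133 as a share of TNC, EPC and AC, -0.0469 in cluster 33 and -0.0305 without exenatide-treated library 2, and ran from -0.178 (without aged library 1) to 0.167 on leaving out a library. For single genes, Hbb-bt turned to -3.74 (ageing) and 2.63 (exenatide) without aged library 2, with extremes of 6.74 (ageing, without young adult library 4) and -7.11 (exenatide, without exenatide-treated library 1), and in cluster 33 Hba-a1 turned to -0.710 (ageing) and 0.337 (exenatide) and Hba-a2 to -0.548 (ageing). Of the planned single-gene values, 292 kept direction and side of the threshold, 8 became called and 4 lost the call; of those that left out a library, 365, 1 and 26. Cluster 33 and cluster 9 fits were added after seeing the data. Depth (42708 to 196363 UMIs per library) and the 2 aged libraries limit the tests.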
